A study of Saccharomyces cerevisiae with 6 samples.

Results

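The genes of peroxisome biogenesis and 6 further peroxisomal proteins were followed through 16 min of sucrose withdrawal in budding yeast. The set is a list of 33 genes chosen by what their products do. It holds 27 biogenesis factors, of which 24 are peroxins (PEX genes) and 3 act in inheritance and fission, 5 enzymes of the peroxisome matrix, and the membrane carrier ANT1. All 33 were found by name among the 5113 genes of the unfiltered table, had a row among the 5028 of the filtered table and passed the filter on low counts, so that none was lost before the test.

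Both conditions used the strain BY4741, a MATa laboratory strain labelled WT that carries deletions of HIS3, LEU2, MET15 (also named MET17) and URA3, grown at 30°C. The 3 Sucrose cultures grew on 2% sucrose and were pelleted once the OD600 had reached 0.45. The 3 NoSucrose cultures were grown in the same way, collected on a filter and held for 16 min in sucrose-free medium with 2% glycerol and 2% ethanol. Filtration and transfer were applied to NoSucrose cultures alone, so handling and carbon source cannot be told apart. The deposited tables name 4 of the 6 libraries differently, and every result below rests on the names in the filtered table; under the other names each condition would mix both treatments and no member was called.

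Peroxisomes are single-membrane organelles that in yeast house the whole of fatty acid beta-oxidation, together with catalase and parts of the glyoxylate cycle. Their matrix proteins are made in the cytosol, fold there and are brought in by cycling receptors, Pex5 for proteins with the C-terminal signal PTS1 and Pex7 for those with the N-terminal signal PTS2. Receptors dock at the membrane, release cargo, are ubiquitinated and are then pulled out by an ATPase for another round. Yeast keeps few peroxisomes on glucose and many on oleate, and the regulators Adr1, Oaf1 and Pip2 act on many of the genes concerned.

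Sequence upstream of the members is shown first because the oleate response element, the site bound by Oaf1 with Pip2, was found in 7 of the 33 promoters. The element was searched on both strands as CGG, 3 bases, T, 1 base, A, 9 to 12 bases, CCG, in the 500 bases before each start codon of the R64 genome, a window chosen after the results were seen. It occurred in 113 of 6000 promoters of that length (1.88%). In the shorter window of 250 bases before to 50 after the start codon it occurred in 5 of the 33 members, PEX5, PEX13, PEX6, PEX11 and CTA1, and in 54 of 6001 promoters (0.9%). The element was described on promoters of peroxisomal genes in the first place, so these shares are a description. Each match is printed 5′ to 3′ on the strand on which it reads, with 3 flanking bases and with the fixed letters of the element in capitals.
CTA1, chrIV:969863-969892, minus strand: ggaCGGcttTaAcaaatataaactCCGaaa
IDP3, chrXIV:614506-614534, minus strand: attCGGcatTaAgcatgctaaatCCGagg
PEX5, chrIV:950385-950412, minus strand: attCGGagtTaAtcgcgatgatCCGttt
PEX11, chrXV:48753-48781, minus strand: cgtCGGcatTtAtctcggagaacCCGaag
PEX6, chrXIV:22751-22780, minus strand: ataCGGcgaTaAtcgtcaacacttCCGgga
MDH3, chrIV:316705-316733, minus strand: ggcCGGagtTaAcgccggtccggCCGaaa
PEX13, chrXII:537113-537142, minus strand: cttCGGaaaTaAaaaaaatttggcCCGctg

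The CTA1 match reads as the element on both strands. It lies 209 to 186 bases before the start codon, the PEX11 match 135 to 113 bases and the PEX5 match 175 to 154 bases. Those of IDP3 (312 to 290) and MDH3 (342 to 320) lie farther away.

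A stretch of 250 bases, from 350 to 101 before the start codon, is given for CTA1, the member with the largest change. Capitals mark matches to any of 4 motifs searched on both strands, the oleate response element, the Adr1 site (TTGGAG or TTGGGG), the stress response element AGGGG and the Mig1 core GCGGGG.
CTA1, chrIV:969781-970030, minus strand: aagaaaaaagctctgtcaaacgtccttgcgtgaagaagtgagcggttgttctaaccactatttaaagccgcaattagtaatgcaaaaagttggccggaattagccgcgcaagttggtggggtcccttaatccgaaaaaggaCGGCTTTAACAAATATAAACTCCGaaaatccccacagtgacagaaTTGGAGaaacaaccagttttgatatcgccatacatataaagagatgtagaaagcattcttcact

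Single matches to the short motifs were common and their shares moved with the window. In the 500 bases 9 of the 33 members held AGGGG, against 34.1% of all promoters, and 11 held an Adr1 site, against 26.2%. In the shorter window 10 members held AGGGG, against 21.6%, and 11 an Adr1 site, against 16.4%. The Mig1 core, the letters bound by the glucose repressor Mig1, was found upstream of PEX13 and of no other member, against 5.77% of all promoters, and in the shorter window no member held it, against 2.57%. No match to AGGGG in a member overlapped a match to another motif. A match is a string of letters, and its use in these cells was not measured.

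Of the 33 transcripts, 8 were called higher in NoSucrose when both an FDR below 0.05 and more than 2-fold change were required, with edgeR's quasi-likelihood test across all 5011 tested transcripts. Among all tested transcripts 12.7% were called higher. The 8 were CTA1, PEX18, IDP3, PNC1, PEX5, PEX29, PEX27 and PEX17. No member was called lower, against 6.03% of all tested transcripts. DESeq2 also called none lower, and 4 members with a negative log2 fold change had an unadjusted p below 0.05 in edgeR. At an FDR below 0.05 and any fold, 25 of the 33 were higher (75.8%, against 42.2% of all tested transcripts) and 4 were lower (12.1%, against 39.8%). In the text, rose and fell are used of members that passed this FDR, and called of those that also passed the fold change threshold.

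Biogenesis factors and matrix enzymes are described side by side. The 27 biogenesis factors had a median log2 fold change of 0.64 (range -0.65 to 4.57), with 5 called higher (18.5%, near the 12.7% of all tested transcripts), 16 that rose by less than 2-fold, 3 that fell by less than 2-fold and 3 that did not pass the FDR. The 5 matrix enzymes had a median of 2.35 (range -0.05 to 5.48), with 3 of 5 called higher, 1 that rose by less than 2-fold and 1 that did not pass the FDR. Over all tested transcripts the median was 0.03. MDH3 and PCS60 lay below the median of the biogenesis factors, the ranges of both groups overlapped, and with 5 matrix enzymes the medians are given as a description with no test.

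Levels were also summed over each group in each library. The matrix enzymes together took 526, 543 and 555 CPM in Sucrose replicates 1, 2 and 3, and 2083, 1994 and 1627 CPM in NoSucrose replicates 1, 2 and 3. Biogenesis factors together took 1382, 1377 and 1369 CPM in Sucrose and 2059, 2024 and 1918 CPM in NoSucrose. The matrix sum thus went from well below the biogenesis sum to about its level in NoSucrose replicates 1 and 2. Much of it was PNC1, which alone took 181, 195 and 188 CPM in Sucrose and 1037, 995 and 839 CPM in NoSucrose. CPM are counts scaled to a common library total with TMM factors, a share of the poly(A) RNA of the culture, so a higher level per cell and a larger fraction of cells expressing a gene cannot be told apart.

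**Figure D1:**
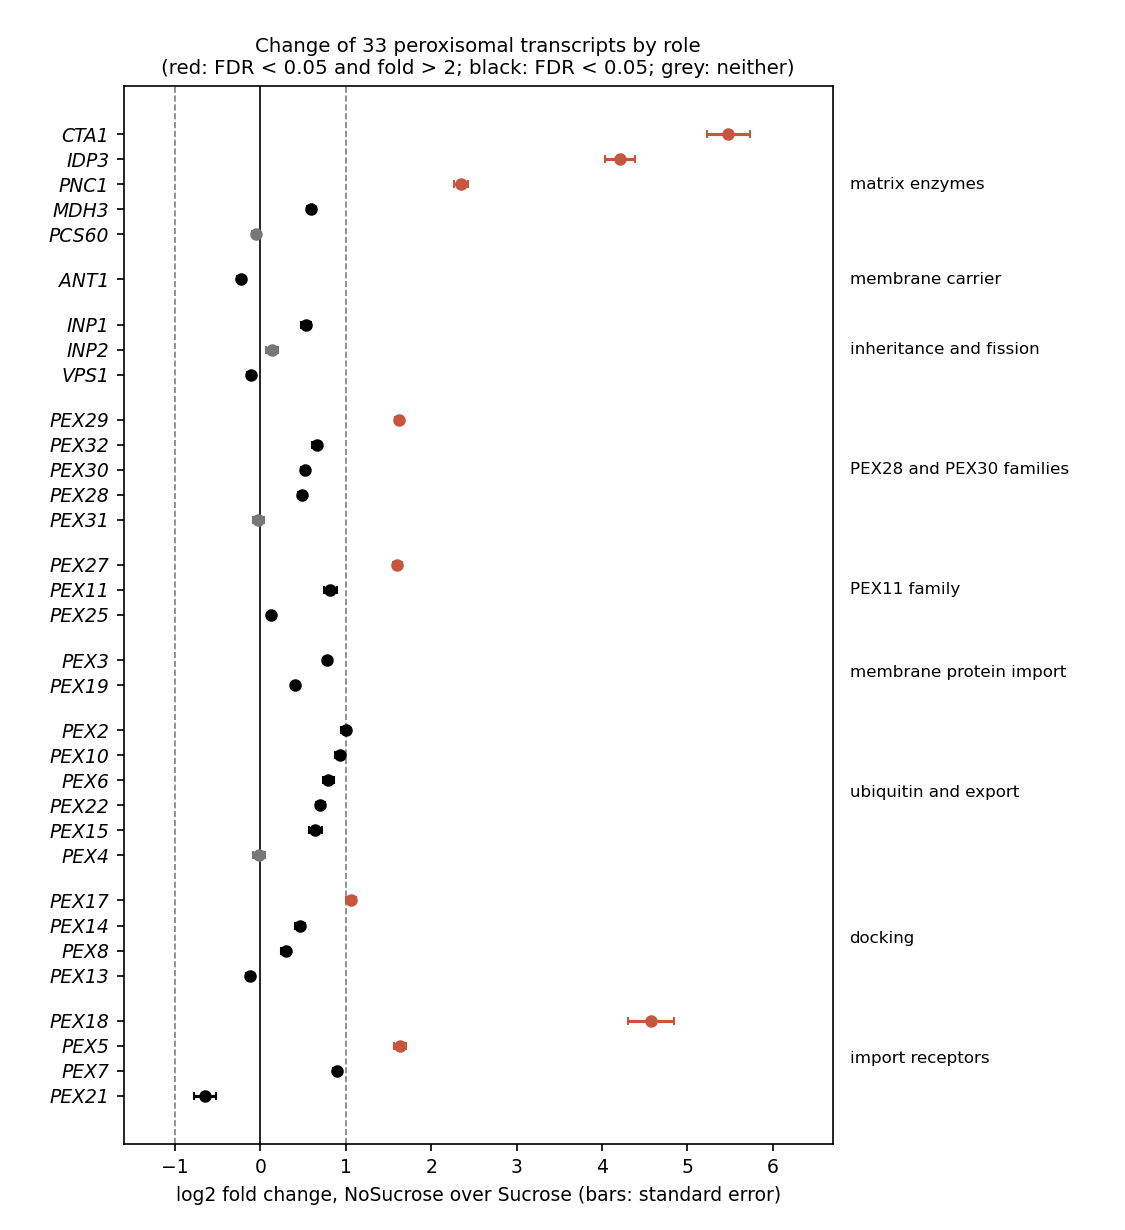
Log2 fold change of each of the 33 transcripts, NoSucrose over Sucrose (points), with its standard error (bars), grouped by role; dashed lines mark a 2-fold change. The called members, in red, lie between 1.06 for PEX17 and 5.48 for CTA1, and PEX21 has the lowest value, -0.65.

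**Figure D2:**
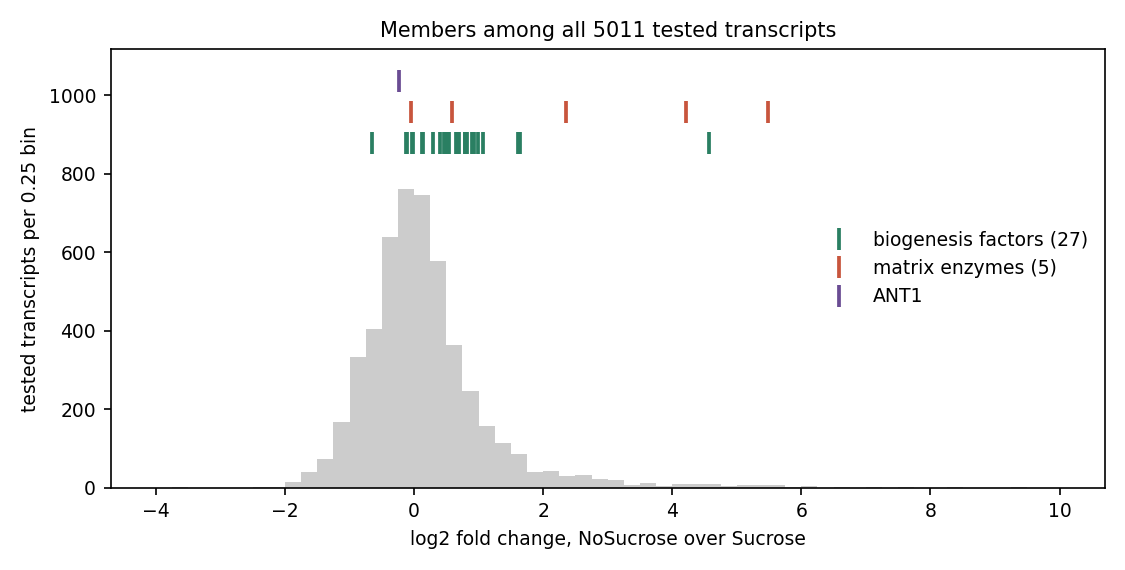
Histogram of the log2 fold changes of all 5011 tested transcripts, with the 27 biogenesis factors, 5 matrix enzymes and ANT1 as ticks above it. Most biogenesis factors sit on the upper shoulder of the histogram, with an interquartile range of 0.21 to 0.91 against -0.41 to 0.50 for all transcripts.

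The import receptors changed in both directions. PEX18 (YHR160C, chrVIII:419221-420072), which encodes a co-receptor that works with Pex7 on PTS2 cargo, rose most among the peroxins. It stood at 0.95, 1.08 and 0.95 CPM in the Sucrose libraries, where it had the lowest count of any member (23 in Sucrose replicate 1), and at 29.3, 25.7 and 16.7 CPM in the NoSucrose libraries. This is a log2 fold change of 4.57 (SE, the standard error of the fit, 0.27, adjusted p = 2.29e-06), or 23.8-fold. PEX21 (YGR239C, chrVII:969187-970053), the related co-receptor for the same Pex7 step, went the other way. Its libraries held 37.0, 26.5 and 27.2 CPM in Sucrose and 18.7, 19.99 and 19.0 CPM in NoSucrose, a log2 fold change of -0.65 (SE 0.13, adjusted p = 0.00185). The conditions did not overlap for either gene. Sucrose replicate 1 was the highest library for PEX21, as it was for HIS3 and for LYS1, an enzyme of lysine synthesis (124 CPM against 71.3 and 71.9 CPM in the other Sucrose libraries); without it the log2 fold change of PEX21 was -0.48 (adjusted p = 0.000309), and its part in the result was not otherwise tested.

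Per length, PEX18 stood at 0.0262, 0.0414 and 0.0354 of the PEX21 level in the Sucrose libraries and at 1.59, 1.31 and 0.891 of it in the NoSucrose libraries. PEX21 was thus the more abundant of the pair in every Sucrose library, whereas PEX18 was in NoSucrose replicates 1 and 2 and PEX21 in replicate 3. PEX5 (YDR244W, chrIV:950563-952401), the PTS1 receptor, held 65.8, 63.5 and 66.2 CPM in Sucrose and 219.9, 207 and 180.2 CPM in NoSucrose (log2 fold change 1.63, standard error 0.07, adjusted p = 6.76e-07). PEX7 (YDR142C, chrIV:740473-741600), the PTS2 receptor, was steadier at 27.2, 27.7 and 26.7 CPM and then 50.2, 51.4 and 50.1 CPM, a log2 fold change of 0.89 (SE 0.04) that stayed below the fold change threshold. The libraries of the conditions did not overlap for any of the 4 receptor genes, 3 up and 1 down. The same held for 84.8% of all tested transcripts.

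**Figure D3:**
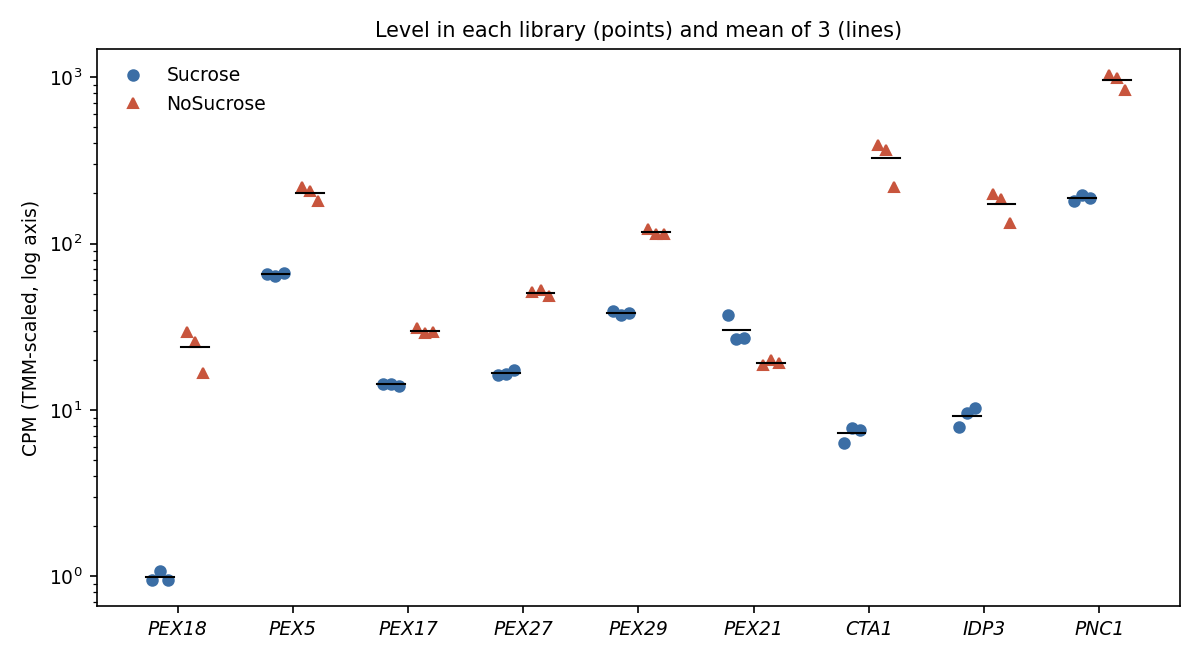
CPM of the 8 called members and of PEX21 in each of the 6 libraries (points) with the mean of each condition (lines), on a log axis. Sucrose and NoSucrose libraries do not overlap for any of the 9, as for 84.8% of all tested transcripts. The NoSucrose libraries of PEX18, CTA1 and IDP3 are the most spread.

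In the docking complex, which receives loaded receptors at the membrane, PEX17 was called higher and its partners changed little. PEX17 (YNL214W, chrXIV:245617-246216) held 14.4, 14.4 and 14.02 CPM in Sucrose and 30.9, 29.1 and 29.3 CPM in NoSucrose, a log2 fold change of 1.06 (SE 0.06, adjusted p = 1.4e-06). PEX14, the docking subunit that binds the receptors, rose from 44.7 ± 2.94 to 61.6 ± 2.67 CPM (SD, n = 3 each) at a log2 fold change of 0.46. PEX8, which sits on the inner face and links docking to the ubiquitin ligases, had 0.30. PEX13 (YLR191W), the other membrane docking subunit, held 41.9, 45.7 and 44.9 CPM and then 40.3, 40.9 and 40.4 CPM. Its log2 fold change of -0.13 (adjusted p = 0.0388) had an adjusted p of 0.859 with scaling by library size alone and did not pass the FDR in 5 of the 6 fits that left out a library.

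Of the 6 genes for ubiquitination and extraction of receptors, 5 rose by less than 2-fold and the conjugating enzyme did not pass the FDR. PEX2 (YJL210W, chrX:36919-37734), a RING ubiquitin ligase, held 35.9, 38.7 and 40.4 CPM in Sucrose and 79.0, 76.0 and 75.03 CPM in NoSucrose. Its log2 fold change of 0.998 (SE 0.05, adjusted p = 1.08e-06) lies just inside the threshold, and it was called when replicate 2 or 3 of either condition was left out (1.00 to 1.04). PEX10 (YDR265W), a second RING ligase of the same complex, held 23.2, 23.8 and 23.7 CPM and then 44.2, 47.2 and 43.2 CPM (log2 fold change 0.93, standard error 0.05). The conditions were well separated for both ligases. PEX6, an AAA ATPase of the export motor, rose by 0.79 on the log2 scale, from 67.7 ± 1.68 to 117 ± 10.1 CPM (SD, n = 3 each). PEX22, the membrane anchor of Pex4, rose by 0.70 and PEX15, the anchor of the motor, by 0.64. PEX4 (YGR133W), the conjugating enzyme that Pex22 holds, stood at 17.7, 17.9 and 16.7 CPM in Sucrose and 16.3, 18.2 and 17.3 CPM in NoSucrose. These libraries overlapped, and the log2 fold change of -0.01 (SE 0.07, adjusted p = 0.876) changed sign with the scaling.

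PEX3 and PEX19 insert membrane proteins and are needed for peroxisomes to form at all. PEX3 (YDR329C), the membrane anchor, held 69.8, 73.4 and 74.6 CPM in Sucrose and 127, 128 and 119.8 CPM in NoSucrose (log2 fold change 0.78, standard error 0.04). PEX19 (YDL065C), the soluble receptor for membrane proteins, held 82.2, 83.8 and 82.1 CPM and then 113, 110.1 and 106 CPM (log2 fold change 0.41, standard error 0.04). Both rose without reaching 2-fold.

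Among the factors that set the size and number of peroxisomes, related genes diverged. PEX27 (YOR193W, chrXV:710446-711576) held 16.3, 16.4 and 17.3 CPM in Sucrose and 50.9, 52.9 and 48.4 CPM in NoSucrose, a log2 fold change of 1.60 (SE 0.06, adjusted p = 2.21e-07). PEX25 (YPL112C), a membrane-remodelling peroxin of the same PEX11 family, held 80.4, 80.7 and 79.3 CPM and then 83.3, 89.9 and 89.2 CPM. Its log2 fold change of 0.13 (adjusted p = 0.0202) did not pass the FDR with DESeq2 (adjusted p = 0.0962) or in 4 of the 6 fits that left out a library. Between them lay PEX11 (YOL147C, chrXV:47933-48643), the membrane-elongating founder of the family, with 37.6, 40.5 and 40.8 CPM in Sucrose and 75.1, 73.1 and 61.9 CPM in NoSucrose (log2 fold change 0.82, standard error 0.08, adjusted p = 2.71e-05). Per length, PEX27 stood at 0.213, 0.213 and 0.229 of the PEX25 level on sucrose and at 0.64, 0.617 and 0.569 of it after withdrawal, and stayed the less abundant of the pair.

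The membrane proteins Pex28 to Pex32 act at or near contacts of peroxisomes with the endoplasmic reticulum and restrain peroxisome number or size. PEX29 (YDR479C, chrIV:1415210-1416874) held 39.1, 37.0 and 38.0 CPM in Sucrose and 121.7, 114.6 and 114.1 CPM in NoSucrose, a log2 fold change of 1.62 (SE 0.04, adjusted p = 8.93e-08). This was the smallest adjusted p among the members. PEX28, which acts with it, rose from 33.2 ± 1.15 to 46.7 ± 0.712 CPM (SD, n = 3 each) and had a log2 fold change of 0.49. PEX32 (0.66) and PEX30 (0.52) also rose by less than 2-fold. PEX31 (YGR004W) held 36.9, 34.7 and 35.1 CPM and then 36.5, 31.8 and 36.4 CPM. Its libraries overlapped, with a log2 fold change of -0.03 (SE 0.07, adjusted p = 0.733).

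Genes of inheritance and fission had the lowest median log2 fold change of the biogenesis roles, 0.13. INP1 (YMR204C), which tethers peroxisomes in the mother cell, held 18.8, 20.03 and 19.0 CPM in Sucrose and 28.9, 28.3 and 26.9 CPM in NoSucrose (log2 fold change 0.54, standard error 0.06). INP2, the receptor that links peroxisomes to the myosin motor on the way to the bud, had 28.8 ± 2.37 and 31.6 ± 1.35 CPM (SD, n = 3 each), and its change of 0.13 on the log2 scale did not pass the FDR (adjusted p = 0.119). VPS1 (YKR001C), a dynamin-like GTPase that divides peroxisomes and also acts in vacuolar sorting, was per length the most abundant biogenesis factor in both conditions, with 356, 352 and 346 CPM and then 332, 321 and 320.2 CPM. Its log2 fold change of -0.12 (adjusted p = 0.0381) became -0.0008 (adjusted p = 0.989) with scaling by library size alone, and it did not pass the FDR in 5 of the 6 fits that left out a library.

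ANT1 (YPR128C), the carrier that brings ATP across the peroxisomal membrane for fatty acid activation, did not rise. Of the 5 matrix enzymes 4 rose, and PCS60 (log2 fold change -0.05) did not pass the FDR. ANT1 held 68.8, 64.7 and 65.3 CPM in Sucrose and 57.2, 54.3 and 58.0 CPM in NoSucrose, with no overlap. The log2 fold change of ANT1 was -0.23 (SE 0.04, adjusted p = 0.00141), and -0.11 (adjusted p = 0.0736) with scaling by library size alone.

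The matrix enzymes fell into 3 that were called and 2 that were not. CTA1 (YDR256C, chrIV:968133-969680), catalase A, which removes the hydrogen peroxide made in beta-oxidation, had the largest change of any member. It held 6.37, 7.84 and 7.57 CPM in Sucrose and 391, 366 and 219 CPM in NoSucrose, a log2 fold change of 5.48 (SE 0.25, adjusted p = 6.78e-07), or 44.6-fold. IDP3 (YNL009W, chrXIV:614821-616083), the peroxisomal NADP-dependent isocitrate dehydrogenase that supplies NADPH for the breakdown of unsaturated fatty acids, held 7.90, 9.57 and 10.2 CPM and then 198.7, 185 and 133 CPM (log2 fold change 4.21, standard error 0.18, adjusted p = 4.72e-07). PNC1 (YGL037C, chrVII:427297-427947), a nicotinamidase that enters peroxisomes bound to Gpd1, began far higher. Its libraries held 181, 195 and 188 CPM in Sucrose and 1037, 995 and 839 CPM in NoSucrose (log2 fold change 2.35, standard error 0.09, adjusted p = 2.57e-07). Each of the 3 was lowest, within NoSucrose, in replicate 3.

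MDH3 (YDL078C), the peroxisomal malate dehydrogenase that reoxidizes NADH, rose from 223 ± 5.65 to 337 ± 11.5 CPM (SD, n = 3 each), which is 0.59 on the log2 scale. PCS60 (YBR222C), an oxalyl-CoA synthetase found at peroxisomes, held 109.7, 111.7 and 120.0 CPM in Sucrose and 109.7, 109.1 and 111.2 CPM in NoSucrose. Its libraries overlapped, and the log2 fold change of -0.05 (SE 0.04, adjusted p = 0.323) was 0.07 with scaling by library size alone. The matrix therefore held both the largest change of the set and one of the smallest.

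**Figure D4:**
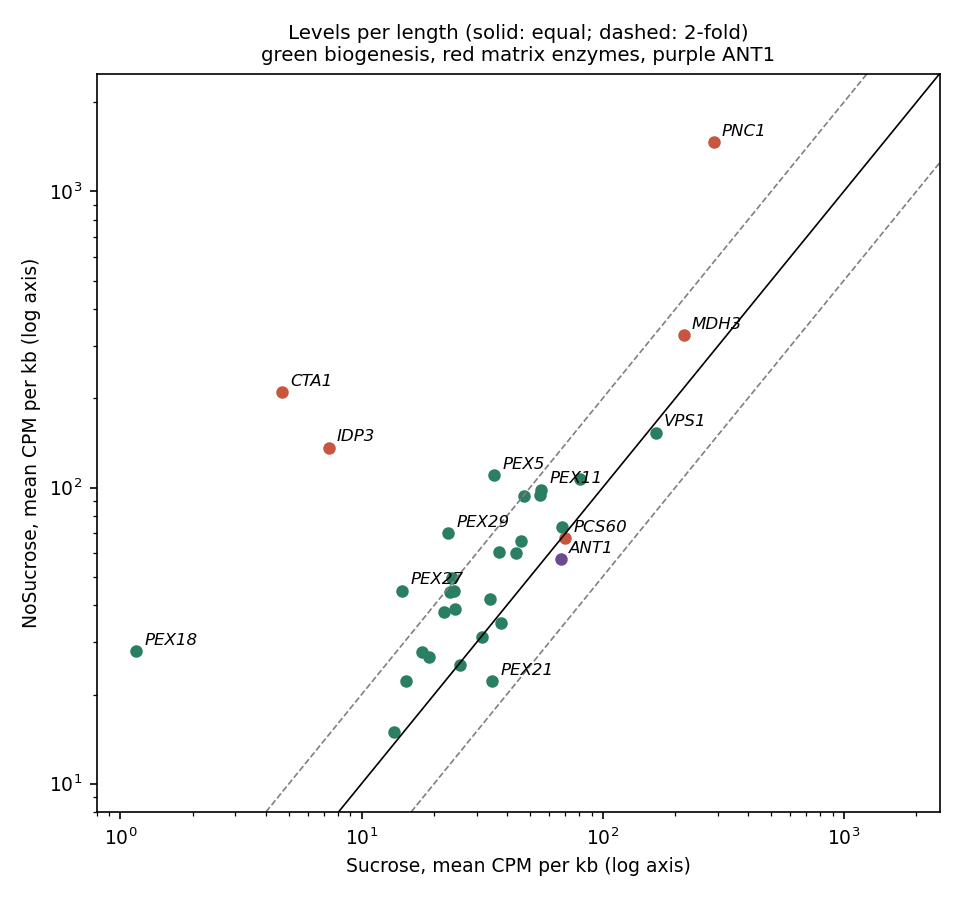
Mean CPM per kb of gene length in Sucrose (x axis) and NoSucrose (y axis) for the 33 members, both on log axes; the solid line marks equal levels and the dashed lines a 2-fold difference. PEX18, CTA1 and IDP3 are the lowest in Sucrose, at 1.17, 4.69 and 7.31 CPM per kb, and lie farthest above the line.

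Levels per length put these changes in scale. In Sucrose the 33 members ran from 1.17 CPM per kb for PEX18 to 289 CPM per kb for PNC1, with MDH3 (216) and VPS1 (166) next. CTA1 was rank 32 and IDP3 rank 31 of 33 in Sucrose. In NoSucrose CTA1 (210.3 CPM per kb) was rank 3 and IDP3 (136) rank 5, whereas PEX18 (28.0 CPM per kb) reached rank 27. The lowest 3 members in Sucrose were thus the 3 with the largest log2 fold change, though level and fold change share the Sucrose values. After withdrawal PNC1 (1470 CPM per kb) was still the most abundant member and INP2 (14.9) the least.

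Each peroxisomal enzyme with a counterpart in another compartment was set beside it. CTT1, the cytosolic catalase T, held 13.0, 14.6 and 14.3 CPM in Sucrose and 354, 285 and 313 CPM in NoSucrose (log2 fold change 4.50, standard error 0.10, adjusted p = 5.25e-08), so both catalases rose. Per length, CTA1 was at 0.533 to 0.585 of CTT1 in the Sucrose libraries and at 1.21, 1.4 and 0.764 of it in the NoSucrose libraries. Among the NADP isocitrate dehydrogenases, mitochondrial IDP1 fell (269 ± 41.4 to 182 ± 7.19 CPM, log2 fold change -0.56, adjusted p = 0.00118), cytosolic IDP2 was called higher (14.1 ± 0.479 to 34.02 ± 1.24 CPM, log2 fold change 1.27, adjusted p = 7.32e-07) and peroxisomal IDP3 rose most (SD, n = 3 each). IDP3 went from 0.0254, 0.0392 and 0.0431 of the IDP1 level per length to 1.09, 1.01 and 0.779 of it. For IDP1, as for PEX21, Sucrose replicate 1 was the highest library, at 316.9 CPM against 248.9 and 242.2 CPM in the other Sucrose libraries. The NoSucrose libraries held 186.0, 186.9 and 174.1 CPM of IDP1. The part of Sucrose replicate 1 in the fall of IDP1 and in the ratio of 0.0254 was not tested. The malate dehydrogenases moved together and little, with log2 fold changes of 0.59 for MDH3, 0.40 for mitochondrial MDH1 and 0.28 for cytosolic MDH2.

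**Figure D5:**
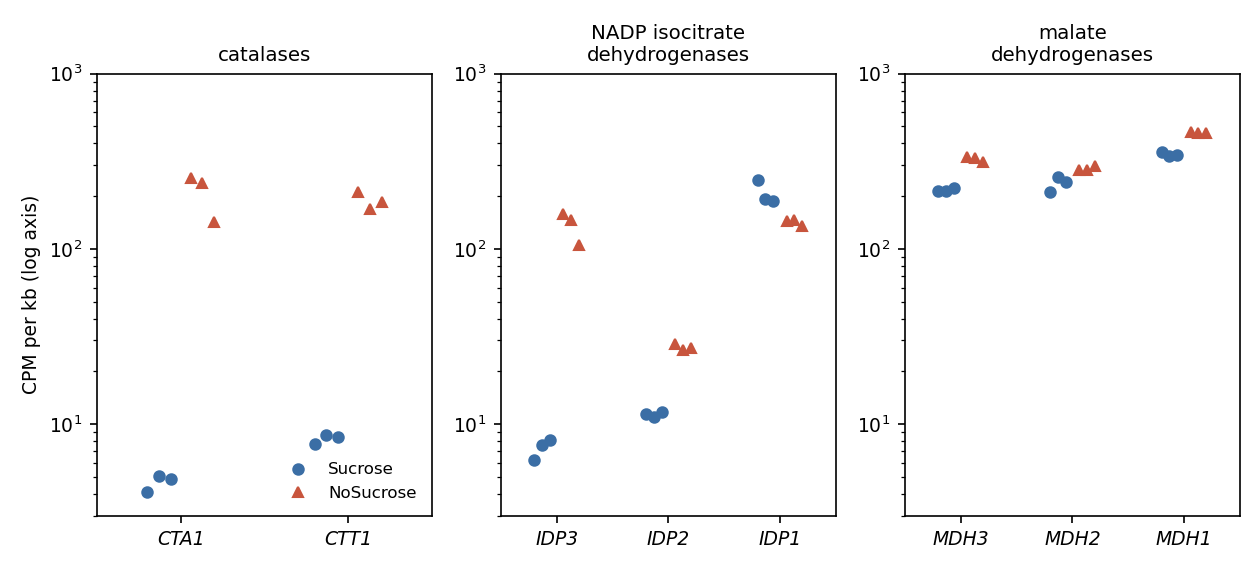
CPM per kb in each library for the peroxisomal enzyme (left in each panel) and its isozymes in other compartments, on a log axis shared by the 3 panels. Both catalases rose, IDP3 rose from below IDP2 to above it while IDP1 fell, and the 3 malate dehydrogenases changed by less than 2-fold.

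Spread between libraries was small for most members and larger for the strongly changed ones. The median coefficient of variation was 3.36% in Sucrose and 4.26% in NoSucrose, with maxima of 19.4% (PEX21 in Sucrose) and 28.5% (CTA1 in NoSucrose). Of the 8 called members, 7 were lowest within NoSucrose in replicate 3, as were 78.4% of all 635 transcripts called higher. With NoSucrose replicate 3 left out, all 8 were still called. The libraries of the conditions did not overlap for 29 of the 33 members (87.9%), close to the 84.8% of all tested transcripts.

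The 3 regulators known for peroxisomal genes rose as well. PIP2, an oleate-responsive activator, went from 45.9 ± 1.28 to 136 ± 16.2 CPM (log2 fold change 1.56, adjusted p = 1.59e-06), ADR1, an activator of beta-oxidation and ethanol use, from 152.5 ± 8.93 to 367 ± 24.6 CPM (1.27, adjusted p = 1.45e-06), and OAF1, the partner of Pip2, from 52.1 ± 3.02 to 82.6 ± 4.49 CPM (0.67, adjusted p = 1.59e-05), each with SD and n = 3. Of the 7 members whose oleate response elements are printed, CTA1, IDP3 and PEX5 were called higher. PEX11, PEX6 and MDH3 rose by less than 2-fold, and PEX13 had a log2 fold change of -0.13. The other 5 called members, PEX18, PNC1, PEX29, PEX27 and PEX17, had no match in the 500 bases. In the shorter window, which was planned, 5 members held the element and 2 of them, CTA1 and PEX5, were called. Of all 33 members 8 were called higher (24.2%), against 12.7% of all tested transcripts. Whether the element and the calls go together was not tested.

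Other peroxisomal genes, listed for their function and including the beta-oxidation enzymes, gave 16 called higher and 1 called lower of 25 tested (64.0% called higher, against 12.7% of all tested transcripts, and 1 lower, against 6.03% of all), with a median log2 fold change of 1.86. The highest was POT1, the thiolase of beta-oxidation, at 8.39, and the lowest STR3, a cystathionine beta-lyase, at -1.30 (SE 0.22, adjusted p = 0.000753). STR3 held 45.8, 29.8 and 30.2 CPM in Sucrose, again highest in replicate 1, and 13.6, 10.9 and 17.8 CPM in NoSucrose. The list also held PEX9, an additional PTS1 receptor, at 1.56 (adjusted p = 9.45e-05). It was drawn up with earlier results of these data known, so its shares are a description.

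Position was examined after the changes were known. The 33 members lie on 12 chromosomes, none overlaps another protein-coding gene of the RefSeq annotation, and none shares a run of 50 bases with another gene. The upstream neighbour was tested for 30 members, and 1 of these neighbours (3.33%) was called higher, against 12.7% of all tested transcripts. It was YAP1801, a clathrin assembly factor 300 bp upstream of PEX18 and in the same direction, with a log2 fold change of 1.26 (SE 0.09, adjusted p = 4.27e-06). The neighbours of CTA1 (RKM4, -0.06) and PEX5 (PRP28, 0.06) did not pass the FDR, whereas those of PEX29 (DIG2, 0.40, adjusted p = 0.000292) and PEX17 (IES2, 0.24, adjusted p = 0.000543) rose by less than 2-fold.

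The total estimated counts of the 6 libraries lay between 25106494 and 33651822. LEU2, URA3 and MET17 had 0 counts in all 6 libraries, as the strain requires, and HIS3, which is only partly deleted in BY4741, had 1164 to 3414. Scaling by library size alone moved the median log2 fold change of all transcripts from 0.03 to 0.14 and the split of calls from 635 higher and 302 lower (67.8% higher) to 733 and 201 (78.5% higher). Changes near 0 are therefore read relative to that shift.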

How the data were processed

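Poly(A) RNA was sequenced from 3 Sucrose and 3 NoSucrose cultures of BY4741, each collected as biological replicates. The authors trimmed reads with Flexbar, quantified them with Salmon on the R64-1-1 transcriptome with decoys, and deposited the resulting estimated counts per gene before and after a filter on low counts. The values are the same in both. In the filtered set 5113 names stand beside 5028 rows of values, and 6 rows carry their own name, so each row was named from the unfiltered row with the same 6 values, which gave exactly 1 gene for all 5028. Its column headers were used: in the 1999 genes also listed in a shortened supplement the values were identical to 6 digits in all 6 libraries, members included (5 of 5). In the unfiltered set 4 of 6 headers name another library.

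Counts were rounded, filtered (filterByExpr, minimum count 15, minimum total 20), scaled by TMM and tested with edgeR 4.0.16 in R 4.3.3 (estimateDisp, glmQLFit, glmQLFTest; condition as the only term) with Benjamini-Hochberg adjustment over 5011 genes. The plan was made for expected counts, as found. The standard error is the absolute log2 fold change over the square root of F. The common biological coefficient of variation was 0.0708. CPM per kb uses RefSeq gene length. All 33 members are named, with all 6 values for called members, those with an absolute log2 fold change of at least 0.8 and the extremes of each role. Members, lists and motifs were chosen with earlier results of these data known, and the 500-base window after seeing them. Alternatives were DESeq2 1.42.0, other scalings, no filter, a replicate block, other thresholds, the unfiltered headers and each library left out. Some items are not reported here.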

Additional observations from a re-analysis of the deposited data

How the results depend on the processing

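All 8 called members stayed called with DESeq2, with the other scalings, without the filter on low counts, with the replicate block and with each library left out. The number called was 8 to 9 when each library was left out, 11 with library size alone (PEX2, PEX7 and PEX10 added) and 9 with upper quartile factors (PEX2 added). Of the 29 members past the FDR, 25 passed it under all these settings, and PEX13, VPS1, PEX25 and ANT1 did not. Other thresholds moved the counts by construction: at an FDR below 0.05 and any fold change 29 members were called (25 higher, 4 lower) among 4107 transcripts, and with a fold change above 1.5 there were 19 (18 higher, 1 lower) among 1989.

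Column headers mattered most. Under the unfiltered table's own headers, each condition mixes Sucrose and NoSucrose libraries; 0 members and 0 of 5011 transcripts were called (edgeR, with 0 members and 8 transcripts at an unadjusted p below 0.05), and the medians were 0.16 for biogenesis factors and 0.52 for matrix enzymes. PEX4 (0.0103) and PCS60 (0.0388) then changed sign.

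Library size alone moved the median of biogenesis factors to 0.76, and leaving out each library gave 0.58 to 0.68. Signs changed for members that had not passed the FDR: PEX4 (0.10 with library size alone, 0.002 with upper quartile factors, -0.0497 to 0.0274 with each library left out), PEX31 (0.0904 with library size alone, -0.0581 to 0.0393 with each library left out) and PCS60 (0.0657 with library size alone). Deviations of same-numbered libraries from their condition means correlated across genes at -0.137, -0.002 and 0.041, so the numbers were not taken to pair the samples, and not every library correlated best with its own number; with the replicate block 8 members and 933 transcripts were called, against 8 and 937. Depth limits PEX18 in Sucrose most, with a lowest count of 23 against 154 for the next lowest member, CTA1.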
